A study of Mus musculus with 8 samples.

Results

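Metallothionein and zinc-handling genes were followed through the cell types of mouse inguinal fat. Of the 32285 genes in the tables, 5 were described: the metallothioneins Mt1 and Mt2, the zinc-sensing transcription factor Mtf1, the zinc exporter Slc30a1 and the zinc importer Slc39a14. They were found by their symbols, and they were chosen because summed counts of Mt1 and Mt2 were lower in several cell types of mice fed under the timed regimen. Their change with feeding is therefore given as a description, with no test. Levels between cell types and the proportion of the 2 metallothioneins did not enter that choice and were tested. Genes of related pathways were also tested, in lists chosen with earlier results of these data known.

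The stromal vascular fraction, the cells that remain once digested fat has lost its floating adipocytes, was taken from the fourth inguinal depot of C57BL/6 mice (C57BL/6J in the study's text) and profiled by 3′ droplet sequencing (10x Genomics). A set of 4 libraries came from mice with free access to food (Ad-Lib 1, 3, 5 and 7) and another 4 from mice fed in a pair of nightly windows (TAN 2, 4, 6 and 8). The labels name no transgene and no further agent in either group, and the age on them is 8 weeks, although older males on regular chow are described in the study's text. The labels do not say whether a library is 1 mouse or a pool, and the study's methods compare the libraries as individual mice.

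Metallothioneins are small cysteine-rich proteins that bind zinc and copper and buffer the free metal in the cell. MTF-1, the product of Mtf1, enters the nucleus when zinc is high and binds metal response elements in the promoters of Mt1, Mt2 and Slc30a1, whose product ZnT1 moves zinc out of the cell. Slc39a14 encodes ZIP14, which carries zinc, iron and manganese inwards and is induced by IL-6 in liver. Metallothionein genes are also known targets of glucocorticoids and of cell stress, in fat as in liver.

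Mt2 (ENSMUSG00000031762, chromosome 8, 94172664 to 94173568) and Mt1 (ENSMUSG00000031765, chromosome 8, 94179082 to 94180327) lie next to each other on the plus strand of GRCm38, each with 3 exons, 5513 bases apart and with 0 annotated genes between them. Mt3 and Mt4 lie upstream in the same cluster. The longest stretch that any Mt1 transcript shares with any Mt2 transcript was 20 bases, and it was 10 bases within the last 150 bases of the longest transcripts, where 3′ reads fall. Slc30a1 (ENSMUSG00000037434, chromosome 1, 191906767 to 191913247, plus strand), Mtf1 (ENSMUSG00000028890, chromosome 4, 124802104 to 124849800, plus strand) and Slc39a14 (ENSMUSG00000022094, chromosome 14, 70303469 to 70351425, minus strand) lie on other chromosomes. Mt2 overlaps Gm45774, Mtf1 overlaps 1110065P20Rik and Slc30a1 overlaps 1700034H15Rik, each on the other strand, and Mtf1 overlaps n-R5s192 on its own. Whether the counting used strand is not given in the sources used here.

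Because Mt1 and Mt2 were lower together in several cell types, the 250 bases before the RefSeq start of each are shown, with Slc30a1 as the third gene known to answer MTF-1. They were taken from RefSeq promoters of build GRCm38.p6, plus strand, 5′ to 3′. Capitals mark the core metal response element, searched as TGCACNC and TGCGCNC on both strands, so that a match on the minus strand reads GNGTGCA or GNGCGCA.
Mt1, chr8:94178839-94179088: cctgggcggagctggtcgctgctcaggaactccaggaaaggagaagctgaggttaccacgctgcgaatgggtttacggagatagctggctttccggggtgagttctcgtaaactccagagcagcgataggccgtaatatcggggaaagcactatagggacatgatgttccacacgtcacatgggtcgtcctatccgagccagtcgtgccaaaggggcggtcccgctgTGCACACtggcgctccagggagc
Mt2, chr8:94172368-94172617: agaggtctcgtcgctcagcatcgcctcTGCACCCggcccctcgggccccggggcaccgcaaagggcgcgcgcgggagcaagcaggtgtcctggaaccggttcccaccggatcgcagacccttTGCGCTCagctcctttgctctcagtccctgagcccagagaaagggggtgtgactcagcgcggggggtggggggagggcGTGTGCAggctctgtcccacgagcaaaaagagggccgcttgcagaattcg
Slc30a1, chr1:191906531-191906780: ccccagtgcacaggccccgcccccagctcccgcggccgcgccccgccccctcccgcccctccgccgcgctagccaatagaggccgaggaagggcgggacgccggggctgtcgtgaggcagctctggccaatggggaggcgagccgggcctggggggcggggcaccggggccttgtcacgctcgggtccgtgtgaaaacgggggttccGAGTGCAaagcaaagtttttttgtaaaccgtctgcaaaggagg
The first 30 bases after each RefSeq start are shown for the 2 metallothioneins, since further matches lie there.
Mt1, chr8:94179089-94179118: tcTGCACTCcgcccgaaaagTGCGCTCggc
Mt2, chr8:94172618-94172647: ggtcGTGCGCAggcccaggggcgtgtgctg
Over the 250 bases before and 50 bases after the start, Mt1 held 3 matches, Mt2 4, Slc30a1 2 and Mtf1 0. Of the 32851 promoters of the same length, 25.7% held at least 1 match, 7.11% at least as many as Slc30a1, 1.97% at least as many as Mt1 and 0.517% at least as many as Mt2. A match is a description of the letters and not of a bound site, and GENCODE lists further Mt1 starts downstream of the one used. For Mt2 the GENCODE gene begins at 94172664, downstream of the RefSeq start at 94172618. The Mt2 bases shown after the start, with their match, therefore lie upstream of that gene. The table held promoters for 4 of the 5 genes, all but Slc39a14.

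After filtering, 36370 cells remained of 44427 barcodes, with 3717 to 5654 per library and 25320800 to 37140950 UMIs (unique molecular identifiers) per library before filtering. Cells were grouped by marker gene into 8 gates. Pdgfra-positive stromal cells were split by their leading pair of markers into Dpp4/Pi16, Icam1/Col15a1 and F3/Gdf10 subsets, and Pecam1, C1qa, Cd3e and Cd79a gated endothelial cells, macrophages, T cells and B cells. Droplets with at least 0.5% of their UMIs from Adipoq and Car3 formed the Adipoq/Car3-rich gate. These 8 gates held 24686 cells. A further 3 gates for levels alone (Rgs5, Cd209a and Ncr1, used for mural, dendritic and natural killer cells) held 1388, 480 Pdgfra-positive cells had no leading pair and the other 9816 cells are not described. Levels are CPM, the UMIs of a gene per 1000000 UMIs of the gate summed over a library, and the library was the replicate.

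Each gate carried the markers of its name. The summed level of 4 stromal markers (Dcn, Col1a1, Col3a1, Lum) lay between 13080 and 34390 CPM in the 3 stromal gates and between 65.7 and 323 CPM in the Pecam1 gate, and all 4 endothelial markers were detected in the Pecam1 gate at a sum of 3138 to 3826 CPM. In the Adipoq/Car3-rich gate the adipocyte markers summed to 51030 to 70140 CPM, yet the median droplet held only 955 to 1161 UMIs, so it is named by its rule and not as a cell type. The same 5 markers, among them Fabp4, which endothelial cells are also known to express, summed to 37250 to 47050 CPM in the Pecam1 gate and 17960 to 27280 CPM in the Rgs5 gate, so their sum sets the Adipoq/Car3-rich gate little apart from these. The Rgs5 gate also held 468 to 772 CPM of endothelial markers. Across whole libraries, median UMIs per cell were 5060 to 6561 in Ad-Lib and 3926 to 5189 in TAN, and the median mitochondrial share was 1.76% to 2.38% in Ad-Lib and 2.69% to 3.64% in TAN. A barcode was found in more than 1 library in 252 cases, with 5 to 16 in each of the 28 pairs of libraries.

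The metallothioneins were abundant in stromal cells, Adipoq/Car3-rich droplets and macrophages and scarce in endothelial cells and lymphocytes. Mt1 averaged 1789 CPM over the 8 libraries in the F3/Gdf10 subset, 1459 in the Icam1/Col15a1 subset, 1446 in the Adipoq/Car3-rich gate, 1198 in the Dpp4/Pi16 subset and 1128 in C1qa macrophages. The order changed with diet: among these 5 gates Adipoq/Car3-rich droplets came after F3/Gdf10 (2356) with 2052 CPM in Ad-Lib, and were lowest with 841 CPM in TAN, where macrophages (1087) stood above the Dpp4/Pi16 (1067) and Icam1/Col15a1 (965) subsets. Over both diets Mt1 averaged 689 in the Cd209a gate and 669 in the Rgs5 gate. Endothelial cells stood well under these with 120.3 CPM, and the lymphocyte gates lower still, with 93.2 in Cd79a, 77.9 in Cd3e and 27.4 in Ncr1. The step from Rgs5 down to Pecam1 was the widest between neighbours, 2.48 ± 0.30 on the log2(CPM + 1) scale (SD, n = 8), and was seen in 8 of 8 libraries. By an exact two-sided sign-flip permutation test within libraries its p was 0.0078, the smallest that 8 libraries allow, or 0.0859 after Benjamini-Hochberg adjustment over the 11 neighbouring pairs. The step from F3/Gdf10 to Icam1/Col15a1, 0.29 ± 0.26 with 7 of 8 libraries in that direction, had an exact p of 0.0156 (adjusted 0.0859). None of the 11 steps passed an adjusted 0.05. A single step at the smallest p cannot pass it, so this does not show that neighbours were alike.

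Mt2 followed another order. By the mean of log2(CPM + 1) its level was highest in the Dpp4/Pi16 subset (470 CPM over 8 libraries), followed by F3/Gdf10 (381), Icam1/Col15a1 (236), Adipoq/Car3-rich (214), C1qa (141), Cd209a (124) and Rgs5 (60.8). The lead of Dpp4/Pi16 came from the TAN libraries (409.6 against 223 CPM in F3/Gdf10), and in Ad-Lib F3/Gdf10 stood beside it (540.1 against 530.3 CPM). Pecam1 (16.5), Cd79a (27.7, raised by a single library of each diet), Cd3e (10.01) and Ncr1 (5.61) came last, in this order of their mean log2(CPM + 1). Again none of the 11 neighbouring steps passed an adjusted 0.05, and the clearest was from Rgs5 to Pecam1 (1.87 ± 0.44, 8 of 8 libraries, exact p = 0.0078, adjusted 0.0859).

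**Figure D1:**
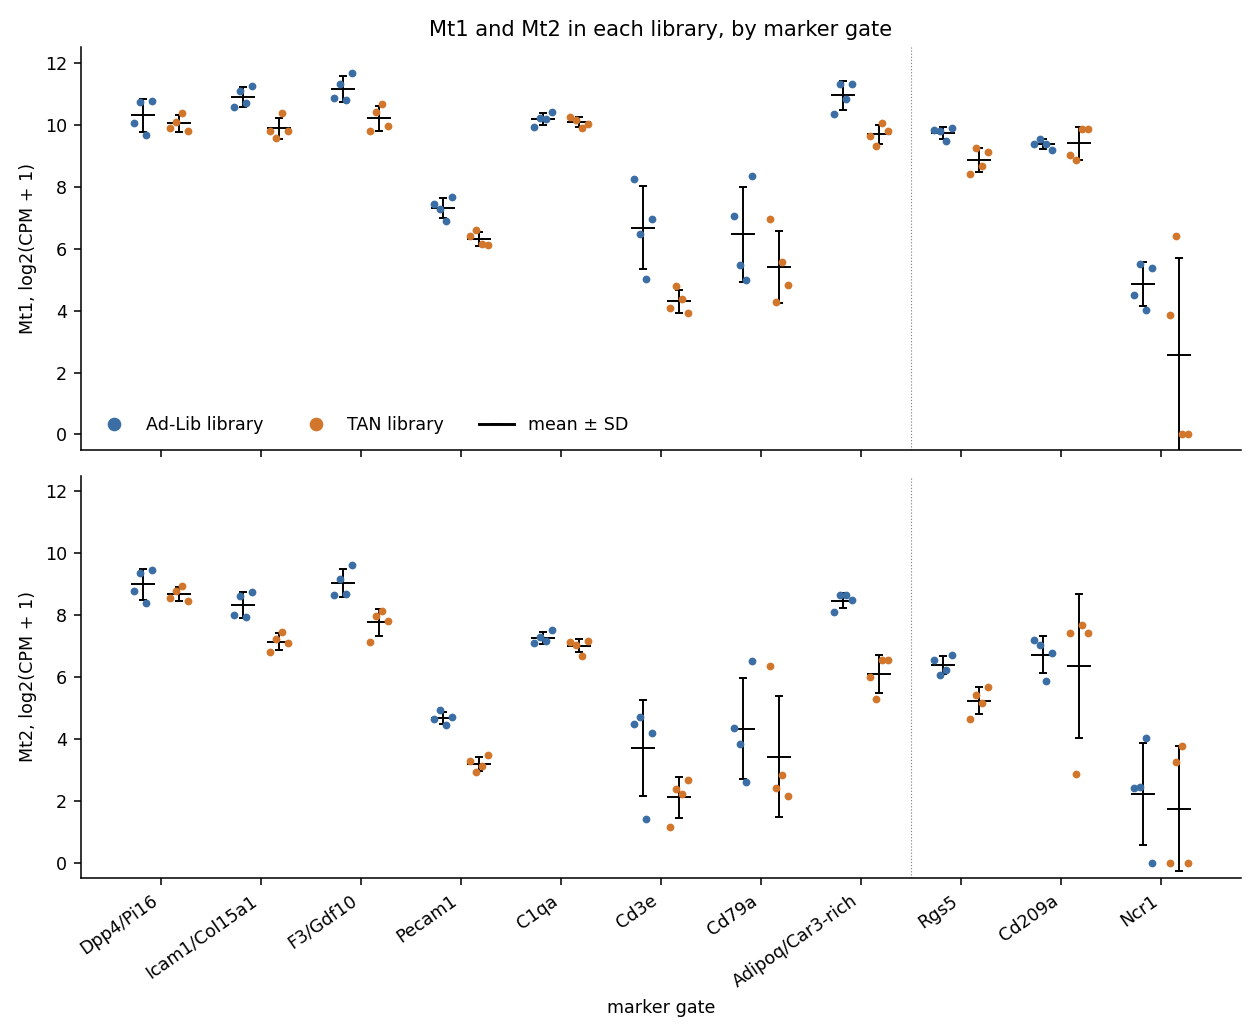
Levels of Mt1 (upper) and Mt2 (lower) as log2(CPM + 1) on the vertical axis, in 8 gates and, right of the dotted line, 3 gates for levels alone; each point is a library, and bars give the mean ± SD of these log2 values. TAN points lie below all Ad-Lib points for both genes in the Icam1/Col15a1, F3/Gdf10, Pecam1, Adipoq/Car3-rich and Rgs5 gates, and the diets overlap in Dpp4/Pi16 and C1qa.

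The balance of the 2 metallothioneins separated the stromal subsets. Since capture of the 2 transcripts may differ, only differences of the Mt2 share were read. They were tested between the stromal gates and described between diets. Mt2 made up 28.2% ± 0.90 of Mt1 plus Mt2 UMIs in the Dpp4/Pi16 subset (SD, n = 8, range 26.5% to 29.2%), 17.0% ± 2.24 in F3/Gdf10 (13.4% to 19.5%), and 13.7% ± 1.87 in Icam1/Col15a1 (10.96% to 16.4%). The Dpp4/Pi16 range touched neither of the other two. Within libraries the Dpp4/Pi16 share was higher than that of F3/Gdf10 by 11.2 percentage points and than that of Icam1/Col15a1 by 14.6 points, each in 8 of 8 libraries (exact sign-flip p = 0.0078, adjusted over 3 pairs 0.0117). F3/Gdf10 exceeded Icam1/Col15a1 by 3.31 points in 7 of 8 libraries (exact p = 0.0156, adjusted 0.0156). This test was added after the values had been seen. The share was 11.1% ± 0.98 in C1qa macrophages, 11.6% ± 3.07 in Pecam1 cells and 8.10% ± 1.31 in the Rgs5 gate.

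**Figure D2:**
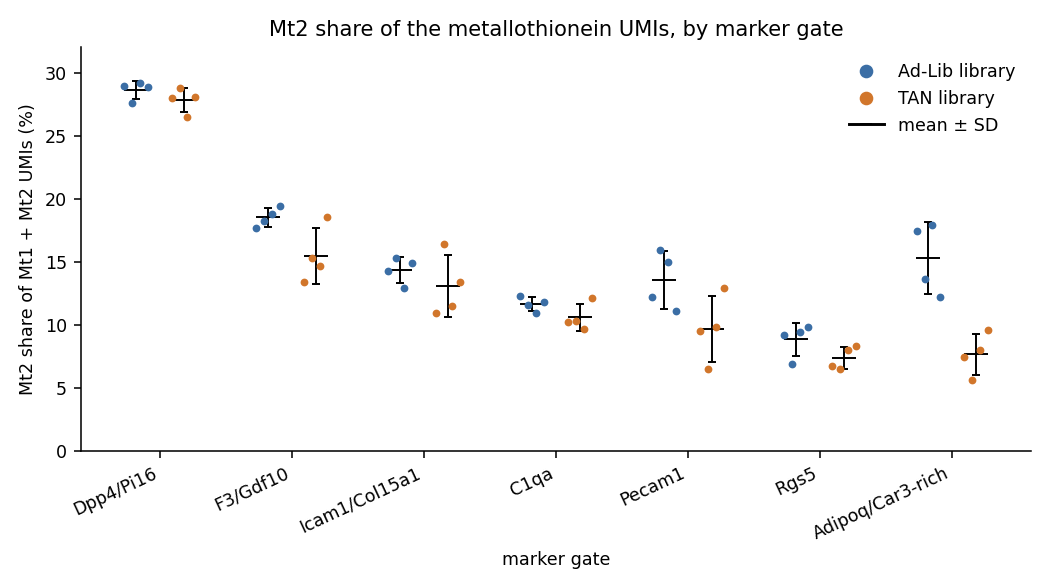
Mt2 as a percentage of Mt1 plus Mt2 UMIs on the vertical axis in 7 gates; each point is a library and bars give the mean ± SD. Both diets sit near 28% in Dpp4/Pi16, far above the other gates, and TAN points lie below all Ad-Lib points in the Adipoq/Car3-rich gate.

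Single droplets showed how the stromal signal was spread. Mt1 was detected in 82.5% to 98.5% of droplets of the 3 stromal subsets, at median depths of 8027 to 11800 UMIs, against 3.94% to 33.3% in Cd3e and Cd79a droplets, at median depths of 3092 to 14790 UMIs. Thinned to 1000 UMIs per droplet, 41.5% to 57.6% of Dpp4/Pi16 droplets and 1.04% to 6.43% of Cd3e droplets kept an Mt1 UMI. In Icam1/Col15a1 droplets of Ad-Lib libraries the median was 6.49 to 19.4 Mt1 UMIs per 10000 and the 90th percentile 42.4 to 55.4, and in TAN 3.03 to 6.06 and 19.4 to 30.6. Within a library, droplets rich in Mt1 were also rich in Mt2: Spearman's rho across droplets was 0.506 to 0.691 in Dpp4/Pi16, 0.396 to 0.611 in F3/Gdf10 and 0.300 to 0.586 in Icam1/Col15a1. These are descriptions over droplets, which share their library and vary in depth.

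Summed within gates, Mt1 and Mt2 were lower in TAN libraries in each of the 8 gates by their means, and in 5 and 4 of them without overlap. By the ratio of the means, Mt1 was 2.02-fold lower in Icam1/Col15a1, 1.93-fold in F3/Gdf10 and 2.03-fold in Pecam1 cells, 2.44-fold in Adipoq/Car3-rich droplets, and 7.13-fold in Cd3e cells, on few UMIs. Mt2 was 2.33-fold, 2.43-fold, 2.99-fold and 4.98-fold lower in the first 4 of these gates. Both were lower by 1.08-fold to 1.29-fold in the Dpp4/Pi16 subset and in macrophages. Whether the shift differs between gates was not tested, because the genes were chosen on this contrast.

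In the Icam1/Col15a1 subset, which holds committed adipocyte progenitors, Mt1 was 1532, 2168, 1660 and 2451 CPM in Ad-Lib 1, 3, 5 and 7, and 890.1, 758, 1331 and 881 CPM in TAN 2, 4, 6 and 8. All TAN libraries lay below all Ad-Lib libraries, and the fitted log2 change was -1.06 ± 0.16 (SE). Mt2 in the same cells was 254, 390.3, 246 and 428 CPM in Ad-Lib, and 109.6, 149, 172 and 136 CPM in TAN, again without overlap, at a log2 change of -1.27 ± 0.17. The thinned share of droplets with an Mt1 UMI moved likewise, 54.2% to 72.0% in Ad-Lib against 37.6% to 50.6% in TAN, with 0 to 4 droplets per library too shallow to thin. Among all 10428 genes tested in this gate, edgeR called 1.37% in either direction, and 2.95% had all TAN below all Ad-Lib libraries. These shares are given for scale, since the genes were selected on this comparison.

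In the F3/Gdf10 subset Mt1 was 1858, 2563, 1763 and 3239 CPM in Ad-Lib and 889, 1372, 1638 and 990 CPM in TAN. The groups did not overlap and the log2 change was -1.002 ± 0.195. Mt2 was 399, 571, 408 and 782 CPM in Ad-Lib and 137.5, 247, 281 and 225 CPM in TAN, also without overlap, at -1.35 ± 0.21. Of 10105 genes tested, 1.04% were called and 2.27% had all TAN below all Ad-Lib libraries.

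The Dpp4/Pi16 subset, which holds early, interstitial progenitors, overlapped between diets. Mt1 was 1070, 1705, 805 and 1733 CPM in Ad-Lib and 956, 1080, 1344 and 888 CPM in TAN, and the log2 change was -0.32 ± 0.20. Mt2 was 437, 649.6, 331 and 703.5 CPM in Ad-Lib and 371, 436, 484 and 347 CPM in TAN, at -0.38 ± 0.19. Of 10461 genes tested here, 0.325% were called and 2.21% had all TAN below all Ad-Lib libraries in CPM. The same was not counted for the share of droplets with a UMI, so nothing particular to Mt1 and Mt2 is read from that share. The unthinned share of droplets with a UMI did not overlap, at 91.2% to 92.5% in Ad-Lib and 83.2% to 88.2% in TAN for Mt1, and 73.3% to 78.8% and 64.4% to 66.4% for Mt2. Thinned to 1000 UMIs it overlapped, at 41.8% to 57.6% and 41.5% to 48.4% for Mt1, and 22.9% to 38.8% and 23.1% to 27.4% for Mt2, and median depth was 9793 to 10970 UMIs in Ad-Lib and 8468 to 10040 in TAN. In all 3 stromal subsets Ad-Lib 3 and Ad-Lib 7 were the highest pair and TAN 6 the highest TAN library, for Mt1 and Mt2 alike.

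Other transcripts moved beside the metallothioneins in these stromal gates. Adipocyte markers (Cfd, Plin1, Lep, Cidec, Fabp4) summed to 358 to 418 CPM in Ad-Lib and 1100 to 2191 CPM in TAN Icam1/Col15a1 cells, 260.3 to 439 against 796 to 1074 in F3/Gdf10 cells and 122 to 222 against 266 to 305 in Dpp4/Pi16 cells, with all 5 markers detected in each. All TAN libraries were above all Ad-Lib libraries in the 3 gates, and how many of all genes were likewise above was not counted. The median mitochondrial share of Icam1/Col15a1 droplets was 1.64% to 2.14% in Ad-Lib and 1.90% to 2.25% in TAN. The part of these measures in the metallothionein difference was not tested.

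Endothelial cells held little Mt1 and Mt2, and the groups were apart. Mt1 was 172, 155, 118 and 201 CPM in Ad-Lib and 83.4, 95.1, 70.7 and 67.9 CPM in TAN Pecam1 cells, at a log2 change of -0.98 ± 0.17. Mt2 was 23.9, 29.3, 20.8 and 25.1 CPM in Ad-Lib and 8.74, 6.63, 7.71 and 10.05 CPM in TAN, at -1.56 ± 0.16. Both were without overlap between diets. The median mitochondrial share moved with diet here, 1.75% to 2.24% in Ad-Lib and 2.58% to 3.40% in TAN, while median depth overlapped, at 4063 to 4257 and 3911 to 4478 UMIs. Stromal markers in this gate summed to 155 to 323 CPM in Ad-Lib and 65.7 to 225 CPM in TAN. T cell markers (Cd3d, Cd3g, Trac, Trbc2) went the other way, at 8.15 to 108 and 36.2 to 457 CPM. The part of these measures in the metallothionein difference was not tested. Of 11505 genes tested, 1.10% were called and 6.02% had all TAN below all Ad-Lib libraries.

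Macrophages held high levels of both genes on either diet. Mt1 was 969, 1186, 1156 and 1366 CPM in Ad-Lib and 1216, 1144, 953 and 1034 CPM in TAN C1qa cells, with a log2 change of -0.07 ± 0.12. Mt2 was 135, 156, 141 and 183 CPM in Ad-Lib and 138, 131, 102 and 143 CPM in TAN, at -0.22 ± 0.13. The diets overlapped for both in CPM. The share of droplets with an Mt2 UMI did not overlap, at 29.8% to 35.4% in Ad-Lib and 18.8% to 26.3% in TAN, or 10.99% to 13.9% and 8.96% to 10.86% when thinned to 1000 UMIs, with 19 to 86 droplets per library too shallow to thin. Median depth there was 5411 to 6144 and 3526 to 6440 UMIs. Of 10283 genes tested, 0.156% were called and 3.14% had all TAN below all Ad-Lib libraries in CPM. The same was not counted for the share of droplets with a UMI, so nothing particular to Mt2 is read from that share.

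Adipoq/Car3-rich droplets had the widest Mt2 difference of the 7 gates in which Mt2 passed the count filter. Mt2 was 275, 399, 396 and 356 CPM in Ad-Lib and 63.6, 37.8, 91.6 and 93.2 CPM in TAN, a log2 change of -2.49 ± 0.22 on 360 UMIs in all. Mt1 was 1299, 2530.1, 1812 and 2566 CPM in Ad-Lib and 787, 634, 1059 and 883 CPM in TAN, at -1.34 ± 0.17. Neither overlapped, and Mt2 made up 15.3% ± 2.84 of the metallothionein UMIs in Ad-Lib against 7.65% ± 1.62 in TAN (SD, n = 4 each), again apart. These droplets were shallow: 57 to 115 of 126 to 236 droplets per Ad-Lib library and 42 to 118 of 85 to 265 per TAN library fell below 1000 UMIs. In those deep enough, 59.6% to 70.9% kept an Mt1 UMI in Ad-Lib and 38.9% to 50.3% in TAN. Median mitochondrial share was 3.33% to 4.55% in Ad-Lib and 5.59% to 6.53% in TAN. Stromal markers in these droplets summed to 284 to 935 CPM in Ad-Lib and 192 to 428 CPM in TAN, and macrophage markers (Csf1r, Adgre1, C1qb, Mrc1) to 48.1 to 142 and 23.3 to 109.7 CPM, with all 4 of each list detected. The part of these measures in the result was not tested. Of 2467 genes tested, 6.45% were called and 5.43% had all TAN below all Ad-Lib libraries.

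T cells had the widest Mt1 difference, on few UMIs. Mt1 was 304, 87.3, 31.3 and 124 CPM in Ad-Lib and 16.1, 26.4, 19.9 and 14.2 CPM in TAN Cd3e cells, without overlap, at -2.56 ± 0.50 over 562 UMIs. Without Ad-Lib 1 the log2 change was -1.83. Stromal markers in the same gate summed to 85.8 to 932 CPM in Ad-Lib and 26.1 to 92.2 CPM in TAN, and macrophage markers to 25.9 to 177 and 5.88 to 25.7 CPM, with all 4 of each list detected. Dendritic markers (Cd74, Itgax, Flt3, Clec10a) summed to 1204 to 4444 and 307 to 1277 CPM. Markers of natural killer cells summed to 941 to 1266 CPM in Ad-Lib and 411 to 873 CPM in TAN, and the median mitochondrial share was 2.00% to 2.64% and 2.85% to 3.56%, both apart. The share of Cd3e droplets with an Mt1 UMI was 14.7% to 25.5% in Ad-Lib and 5.30% to 6.89% in TAN. The part of these measures in the Mt1 difference was not tested. Of 7549 genes tested, 5.15% were called and 8.08% had all TAN below all Ad-Lib libraries. Mt2 did not pass the count filter in this gate, with 99 UMIs.

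In B cells the libraries scattered and the diets overlapped. Mt1 was 132, 43.8, 30.5 and 323 CPM in Ad-Lib and 123, 18.5, 46.8 and 27.6 CPM in TAN Cd79a cells, on 20 to 452 Ad-Lib and 85 to 506 TAN droplets per library. The log2 change of -1.40 ± 0.83 was -0.39 when droplets over 15000 UMIs were left out. Mt2 changed by -0.50 ± 1.19, which turned to 0.13 without Ad-Lib 7 and to -2.34 without TAN 2. By edgeR 0% of 6681 genes were called in this gate, 134 had an unadjusted p below 0.05, DESeq2 called 0, and 0.105% had all TAN below all Ad-Lib libraries.

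In the gates for levels alone, Mt1 of Rgs5 mural cells was 907, 897, 706 and 951 CPM in Ad-Lib and 337, 604.5, 403 and 551 CPM in TAN, without overlap. Mt2 there was 91.8, 66.2, 73.6 and 104 CPM in Ad-Lib and 24.2, 42.0, 34.9 and 49.8 CPM in TAN, also without overlap. Of 5022 genes with at least 100 UMIs in this gate, 3.01% had all TAN below all Ad-Lib libraries. Mural markers there summed to 3416 to 4528 CPM in Ad-Lib and 2649 to 3610 CPM in TAN, erythroid markers to 17.2 to 7162 and 35.01 to 26750 CPM, and median depth was 3414 to 3944 and 1964 to 3843 UMIs. The part of these measures was not tested. Dendritic cells of the Cd209a gate overlapped, with Mt1 at 575 to 751 CPM in Ad-Lib and 463 to 938 CPM in TAN. Both means were higher in TAN there, at 666 and 712 CPM for Mt1 and 110 and 138 CPM for Mt2. In the Ncr1 gate both genes overlapped, on 33 and 6 UMIs. Means in Ad-Lib and TAN were 30.4 and 24.5 CPM for Mt1 and 5.99 and 5.24 CPM for Mt2.

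Of the other genes of the cluster, Mt3 had 39 UMIs in these 11 gates, 28 of them in Cd3e cells. Mt4, known from squamous epithelium, had 0 of 164708635 UMIs, which allows a level of up to 0.0182 CPM at 3 UMIs, counting error only.

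**Figure D3:**
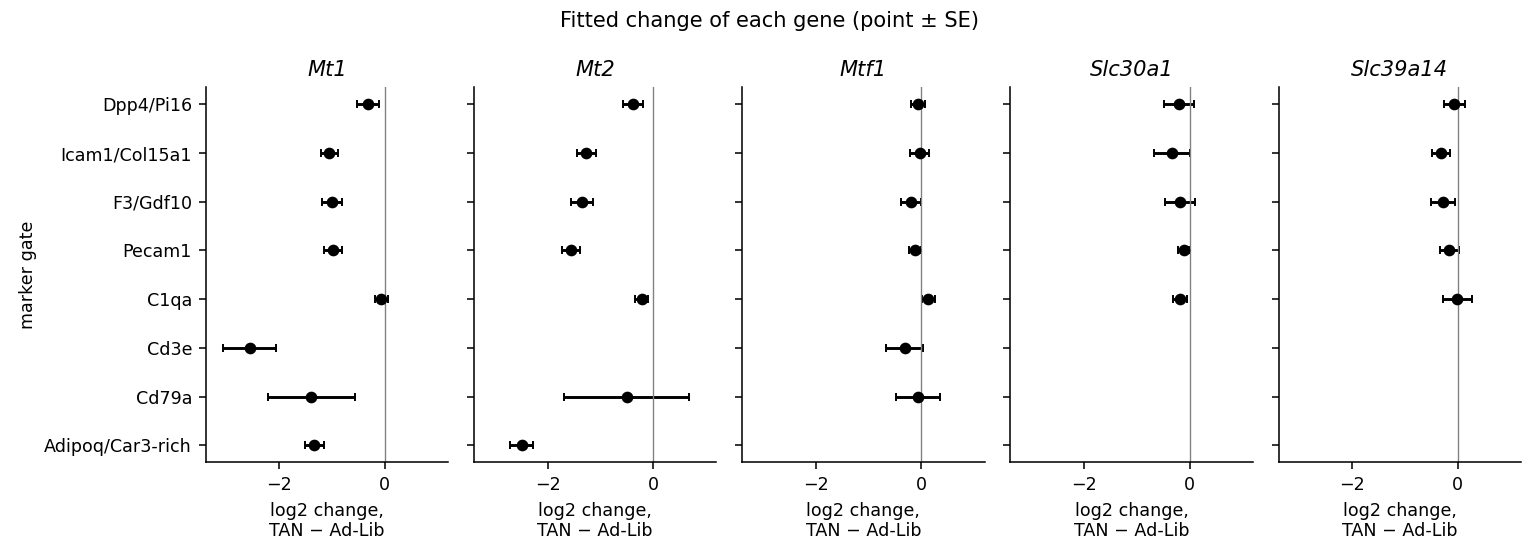
Fitted log2 change (TAN minus Ad-Lib, horizontal axis) with its SE for each of the 5 genes in the 8 gates; gates in which a gene did not pass the count filter have no point. Mt1 and Mt2 points lie left of 0 in each gate shown, and Mtf1, Slc30a1 and Slc39a14 lie between -0.33 and 0.13.

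Mtf1, Slc30a1 and Slc39a14, the metal sensor and the transporters, overlapped between diets in 8 of 8 gates each. Over all genes tested in a gate, all TAN lay below all Ad-Lib libraries for 0.105% to 8.08%, so nothing particular to these 3 is read from the overlap. They passed the count filter in 7, 5 and 5 gates, with median log2 changes of -0.07, -0.18 and -0.17 beside 0.0039 over all genes and gates tested.

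Mtf1 was low in these 11 gates, with means from 12.2 to 31.6 CPM. The step from Rgs5 to Pecam1 was 0.39 ± 0.19 (8 of 8 libraries, exact p = 0.0078, adjusted 0.0859) and did not pass. Its fitted change with diet ran from -0.32 ± 0.36 in Cd3e cells to 0.13 ± 0.12 in macrophages.

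Slc30a1, the exporter, was highest in endothelial cells. It was 33.3, 33.5, 42.2 and 42.0 CPM in Ad-Lib and 37.2, 33.3, 29.5 and 35.3 CPM in TAN Pecam1 cells, and 22.5, 21.3, 23.0 and 25.1 CPM in Ad-Lib and 20.3, 15.4, 26.1 and 19.0 CPM in TAN macrophages. Pecam1 cells exceeded macrophages by 0.71 ± 0.27 and macrophages exceeded the Rgs5 gate by 0.69 ± 0.44 on the log2(CPM + 1) scale, each in 8 of 8 libraries (exact p = 0.0078, adjusted 0.0430). Below these steps, neighbours from Rgs5 (13.4 CPM) to Cd79a (2.82) did not pass the test. The stromal subsets, which were rich in Mt1, held 5.01 to 7.52 CPM of Slc30a1. With diet, its log2 change was -0.11 ± 0.10 in Pecam1 cells and -0.18 ± 0.14 in macrophages.

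Slc39a14, the importer, was also highest in Pecam1 cells (17.2 CPM over 8 libraries), followed by the Icam1/Col15a1 (13.6), Dpp4/Pi16 (13.03) and F3/Gdf10 (11.96) subsets. It was 6.61 in macrophages and 2.02 in Cd79a cells. The step from Pecam1 to Icam1/Col15a1 was 0.30 ± 0.28 (7 of 8 libraries, exact p = 0.0234, adjusted 0.258), and none of the 11 steps passed. In Pecam1 cells it was 12.1, 15.9, 23.8 and 22.1 CPM in Ad-Lib and 14.4, 15.8, 18.0 and 15.5 CPM in TAN, at -0.17 ± 0.18. The lowest fitted change was -0.33 ± 0.17, in the Icam1/Col15a1 subset.

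**Figure D4:**
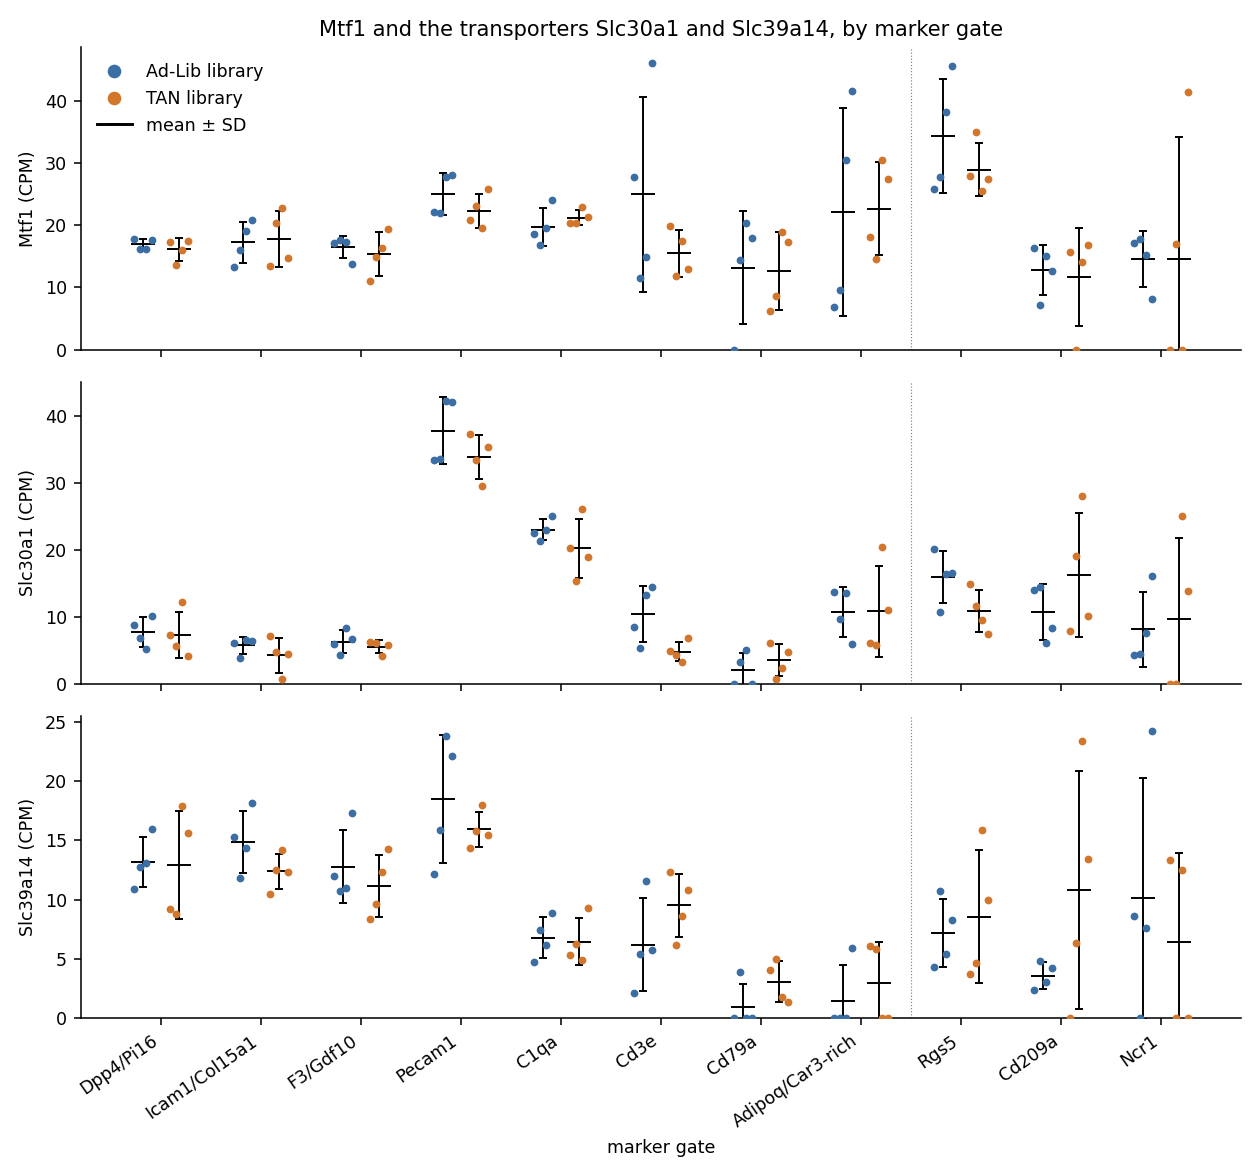
CPM of Mtf1, Slc30a1 and Slc39a14 (vertical axes, linear from 0, where bars are cut) in 11 gates; each point is a library and bars give the mean ± SD. Slc30a1 is highest in Pecam1 cells and then C1qa cells, and the diets overlap in the 8 gates left of the dotted line.

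The other zinc transporters were followed as a list of 22 SLC30 and SLC39 genes. Of 81 gene-and-gate pairs tested by edgeR's quasi-likelihood test over all genes of a gate (a call needs a change of at least 1.5-fold and an adjusted p, by Benjamini-Hochberg, under 0.05), 1 rose and 0 fell, where 1.4% of all gene-and-gate pairs were called in either direction and 0.432% higher in TAN, with a median log2 change of 0.03 and 10 pairs at an unadjusted p below 0.05. The gene called was Slc39a8, encoding the importer ZIP8, in Pecam1 cells. It was 5.43, 6.95, 7.38 and 7.09 CPM in Ad-Lib and 14.7, 12.48, 10.3 and 13.04 CPM in TAN, with all TAN above all Ad-Lib libraries (log2 change 0.96 ± 0.17, edgeR adjusted p = 0.0198). The call was lost when Ad-Lib 1, Ad-Lib 7 or TAN 4 was left out. The summed level of the list was 329 to 387 CPM in Ad-Lib and 342 to 389 CPM in TAN Pecam1 cells, and 374 to 459 against 397 to 469.8 CPM in Icam1/Col15a1 cells. Slc39a10, an importer named here after its values were seen, averaged 78.8 and 93.9 CPM in Ad-Lib and TAN Pecam1 cells without overlap, but was not called (edgeR adjusted p = 0.155). How many of all Pecam1 genes had all TAN above all Ad-Lib libraries was not counted, so nothing is read from either non-overlap.

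Of the genes of the metal and oxidative stress response, few were called. Of 57 pairs, 2 fell and 0 rose (median log2 change -0.06), beside 0.969% of all 69479 gene-and-gate pairs that were called lower in TAN. Both were Ndrg1, which is induced by hypoxia and metal. It averaged 30.4 and 17.0 CPM in Ad-Lib and TAN Icam1/Col15a1 cells (-0.81 ± 0.18, edgeR adjusted p = 0.0288) and 44.2 and 26.9 CPM in F3/Gdf10 cells (-0.78 ± 0.15, edgeR adjusted p = 0.0119), without overlap in either. The call in Icam1/Col15a1 cells was lost without any one of Ad-Lib 1, Ad-Lib 5, TAN 2, TAN 4 and TAN 6, and that in F3/Gdf10 cells without TAN 2. Of 67 pairs of copper and iron genes, 1 fell and 0 rose (median -0.04), near the share over all pairs. It was the copper chaperone Atox1 in Cd3e cells, from 265 to 134 CPM (-0.80 ± 0.19, edgeR adjusted p = 0.0272), where 3.99% of all genes were called lower. That call was lost without any one of Ad-Lib 1, Ad-Lib 7, TAN 4, TAN 6 and TAN 8.

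Of 15 glucocorticoid-responsive genes, 10 fell in at least 1 gate and 5 were called in none. Of their 104 pairs, 22 fell and 0 rose, beside 0.969% of all gene-and-gate pairs called lower, and the median log2 change was -0.42 beside 0.0039 over all genes. By gate, the share of all genes called lower was 0.988% in Icam1/Col15a1, 0.703% in F3/Gdf10, 0.704% in Pecam1, 3.99% in Cd3e, 3.36% in Adipoq/Car3-rich and 0.0681% in C1qa. In Icam1/Col15a1 cells 7 of 14 tested fell, led by the clock gene Per1 (32.5 to 15.2 CPM, -1.10 ± 0.14, edgeR adjusted p = 0.000949), Errfi1 (234 to 147 CPM, -0.70 ± 0.11, edgeR adjusted p = 0.00331) and glutamine synthetase, Glul (189 to 116 CPM, -0.73 ± 0.12, edgeR adjusted p = 0.00492). In F3/Gdf10 cells 4 of 13 fell, among them Glul, the transcription factor Klf9 (505 to 321 CPM) and Errfi1. Pecam1 cells had 4 of 15, led by Ddit4, an inhibitor of mTORC1 (60.8 to 25.6 CPM, -1.20 ± 0.12), Per1 (57.8 to 22.7 CPM, -1.32 ± 0.15) and the cell-cycle inhibitor Cdkn1a (361 to 142 CPM, -1.30 ± 0.22). Cd3e cells had 4 of 13, led by the phosphatase Dusp1, Cdkn1a and Errfi1, and Adipoq/Car3-rich droplets 2 of 9, Klf9 and Cebpd. Macrophages had 1 of 13, Tsc22d3, which encodes GILZ (242 to 145 CPM, -0.72 ± 0.11, edgeR adjusted p = 0.0220). In the Dpp4/Pi16 subset 0 of 15 were called, with a median of -0.19, and in Cd79a cells 0 of 12. Without Ad-Lib 7 or without TAN 4 the count was 13 instead of 22. With each library left out in turn 8 of the 22 pairs kept their call every time, Glul, Errfi1 and Per1 in Icam1/Col15a1, Ddit4 and Per1 in Pecam1, Dusp1 in Cd3e, and Klf9 and Cebpd in Adipoq/Car3-rich.

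Of 61 pairs of IL-6 and acute-phase genes, 5 fell and 0 rose (median -0.19), beside the 0.969% of all pairs called lower, and 3 of the 5 were in the Cd3e and Adipoq/Car3-rich gates, where 3.99% and 3.36% of all genes were called lower. They were haptoglobin, Hp, in Pecam1 cells (27.1 to 16 CPM), the IL-6 receptor Il6ra in F3/Gdf10 cells (49.1 to 32 CPM), Cebpb in Cd3e cells (161 to 74.9 CPM), and Junb (958 to 465 CPM) and Lrg1 (216 to 130.2 CPM) in Adipoq/Car3-rich droplets. Without Ad-Lib 7 the count was 3 and without TAN 4 it was 2. Junb kept its call whichever library was left out, and Hp lost it in 7 of 8 cases.

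Of 12 immediate-early and heat-shock genes that tissue dissociation induces, 10 fell in at least 1 gate. Of their 88 pairs, 18 fell and 0 rose (median -0.35), beside 0.969% of all pairs called lower, and 11 of the 18 were in the Cd3e and Adipoq/Car3-rich gates (3.99% and 3.36%). In Icam1/Col15a1 cells 4 of 12 fell, Fosb (2883 to 1939 CPM), the chaperone Hspa1a (134 to 84.9 CPM), Ier3 (148 to 91.3 CPM) and Nr4a1 (46.9 to 20.02 CPM), and in F3/Gdf10 cells 3 of 12, Hspa1a, Nr4a1 and Atf3. Cd3e cells had 5 of 10, led by Egr1 (259 to 67.7 CPM), with Fos, Fosb and Atf3 at an equal adjusted p, and Adipoq/Car3-rich droplets 6 of 9, led by Jun, Fosb and Fos. The Dpp4/Pi16 and C1qa gates had 0 of 12 each, with medians of -0.05 and -0.08, Pecam1 cells 0 of 12, with a median of -0.31, and Cd79a cells 0 of 9. The summed level of the list was 21680 to 26650 CPM in Ad-Lib and 17660 to 20480 CPM in TAN Icam1/Col15a1 cells. Its part in the metallothionein difference was not tested. Without Ad-Lib 7 or without TAN 6 the count was 10 instead of 18. The 8 pairs that kept their call with each library left out were all in the Cd3e and Adipoq/Car3-rich gates.

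**Figure D5:**
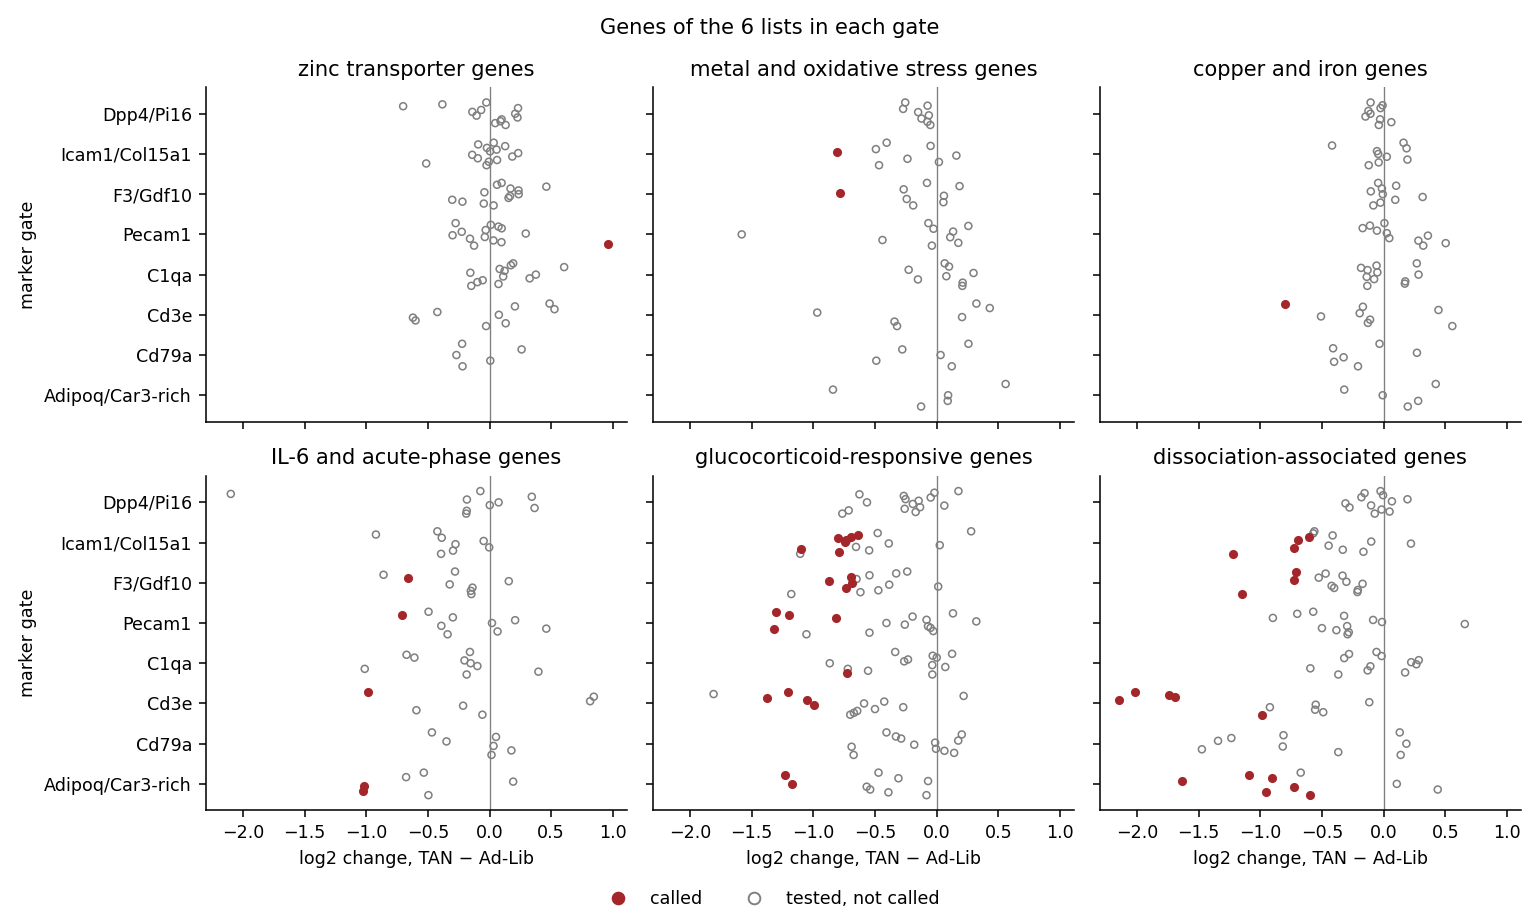
Log2 change (TAN minus Ad-Lib, horizontal axis) of each tested gene of 6 lists in the 8 gates; filled points were called by edgeR and open points were not. The 22 called glucocorticoid-responsive and 18 called dissociation-associated points lie left of 0, and 1 zinc transporter, Slc39a8 in Pecam1 cells, lies right of it.

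Among 5427 genes with at least 20 CPM in 4 or more gates, Mt2 followed Mt1 most closely. The measure was Pearson's correlation of the deviations of log2(CPM + 1) from the mean of the same gate and diet. It was 0.897 for Mt2 over 48 points in 6 gates, where points from 1 library share their depth, and over 32 to 64 points for the genes that follow. The next were Srprb (0.791), Edem2 (0.761), Tmem238 (0.759), Agpat4 (0.740), Tmem176a (0.715), Creld2 (0.710) and the ferritin light chain Ftl1 (0.695). Mtf1 stood at rank 217 with 0.395. When the Cd3e and Cd79a gates were left out, which was decided after seeing the data, Mt2 was again first of 4973 genes with 0.850, while Ftl1 came to rank 189, Edem2 to 450 and Creld2 to 1441, and Srprb, Tmem238, Agpat4 and Tmem176a no longer met the level asked.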

How the data were processed

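Inguinal stromal vascular cells were profiled in 8 libraries, 4 for each diet. The deposited values are raw UMI counts per gene and barcode, which the authors made with Cell Ranger from exonic reads on mm10 (GRCm38). The submitters' notes give Cell Ranger 3.0.2, and the file headers give 6.0.1. Of the gene IDs, 32158 of 32285 were found in GENCODE M21. No doublet caller was run, and a gate left out droplets with markers of the other main gates.

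Droplets with 700 to 30000 UMIs, 200 to 8000 genes and at most 10% mitochondrial UMIs were kept, which left out 3745 over the mitochondrial limit. Counts were summed by gate and library (at least 10 cells, and at least 3 libraries per diet) and fitted by edgeR 4.0.16 (R 4.3.3; filterByExpr, TMM, quasi-likelihood test) over all genes of a gate, with no covariate and Benjamini-Hochberg adjustment. The fit was tried on simulated counts of the Icam1/Col15a1 gate alone, with known changes placed in its more highly counted genes. That trial does not cover the shallower gates. Adjusted p-values in the text are from edgeR. Levels were compared between neighbouring gates by exact sign-flip tests on log2(CPM + 1), with a pseudocount of 1 (SciPy 1.17.1), adjusted over the 11 pairs of all gates. 1 gate for levels alone entered that adjustment but is not reported here. Alternatives were DESeq2 1.42.0, each library left out, other limits and no count filter.

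The text names all 5 genes, up to 3 called genes per list and gate (more where adjusted p-values tied), and the 8 genes most like Mt1. Slc39a10, which was not called, was named outside this rule after its values were seen. Members and lists were chosen with earlier results of these data known. No value column was left unused (0).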

Additional observations from a re-analysis of the deposited data

Results flagged for a closer look

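Of 110 sets of 4 libraries, 8 held a library far from the others by Dixon's criterion, which chance alone gives for about 5% of sets. For the metallothioneins, Mt1 in the Ncr1 gate was 84.6 CPM in TAN 4 (0 to 13.3 in the other TAN libraries). Mt2 in the Cd79a gate was 89.67 CPM in Ad-Lib 7 (5.08 to 19.4 in the other Ad-Lib libraries) and 79.99 CPM in TAN 2 (3.45 to 6.08 in the other TAN libraries).

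Mtf1 was 13.79 CPM in F3/Gdf10 cells of Ad-Lib 7 (17.1 to 17.6 in the others) and 0 CPM in the Cd209a gate of TAN 4 (14.01 to 16.8 in the others), where 1 UMI is worth 6.34 CPM. Slc30a1 was 3.838 CPM in Icam1/Col15a1 cells of Ad-Lib 3 (6.15 to 6.50 in the others). Slc39a14 was 3.88 CPM in the Cd79a gate of Ad-Lib 3 and 5.926 CPM in Adipoq/Car3-rich droplets of Ad-Lib 7, each against 0 in the other Ad-Lib libraries. In the latter library 5.926 CPM is the worth of 1 UMI. In the Cd79a gate 1 UMI was worth 3.89 to 8.97 CPM in the other Ad-Lib libraries, so their 0 does not set Ad-Lib 3 apart.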

How the results depend on the processing

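No paired analysis was possible because the diets share no replicate numbers. Of 146 alternative values of the counts and medians, 120 stayed within 1.5 times or within the replicate spread, 26 moved and 0 reversed direction. With 1 library left out at a time, the counts ran from 0 to 2 for zinc transporters (1 with all libraries), 1 to 2 for metal and oxidative stress genes (2), 13 to 27 for glucocorticoid-responsive genes (22), 2 to 7 for IL-6 and acute-phase genes (5), 0 to 3 for copper and iron genes (1) and 10 to 18 for dissociation-associated genes (18). The metal and oxidative stress count was 1 whenever TAN 2, TAN 6, Ad-Lib 1 or Ad-Lib 5 was the library left out. The zinc count was 2 without Ad-Lib 3 and the copper and iron count 3 without Ad-Lib 5. With no filter on low counts, 35 glucocorticoid-responsive pairs and 14 IL-6 and acute-phase pairs were called, 2 of the latter higher in TAN. With the gate gene at 2 UMIs or more, 3 IL-6 and acute-phase pairs were called and 2 neighbouring gates differed in Mt1 instead of 0. Copper and iron gave 0 at no more than 15000 UMIs per cell and 2 with no minimum change. The cause was not tested. The median Mt1 change ran from -1.19 to -0.85 and that of Mt2 from -1.47 to -1.13 with 1 library left out. Among 438 single values, 436 stayed within 1 SD of the replicates and 2 moved, Mt2 in the Pecam1 gate (-1.34 with the Adipoq and Car3 limit at 0.25%) and in the Cd79a gate (-2.34 without TAN 2). Mt1 in macrophages was 0.02 without TAN 6. DESeq2 called 222 genes in the Pecam1 gate (edgeR 127), 35 in C1qa (16), 599 in Cd3e (389) and 86 in Adipoq/Car3-rich droplets (159). Depth limits the small gates, where 1 UMI was worth up to 10.2 CPM in Adipoq/Car3-rich droplets.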

Other observations

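The droplets left out for a mitochondrial share over 10% also held metallothionein UMIs. Summed per library, Mt1 was 542 to 715 CPM in Ad-Lib and 345 to 496 CPM in TAN, and Mt2 was 132 to 194 CPM in Ad-Lib and 34.8 to 100.2 CPM in TAN. Both genes were chosen on this contrast, so these values are a description. These droplets numbered 189 to 383 per Ad-Lib library and 348 to 1039 per TAN library, and they were not split by cell type.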
